A study of Mus musculus with 12 samples.

Results

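The cytosolic ribosomal protein genes were 85 of the 24781 rows of the deposited expression table. They were taken by symbol, as every row named Rpl or Rps followed by a number, with an optional a, l, x or y and an optional last digit, together with Rplp0, Rplp1, Rplp2 and Rpsa. By name, 43 encode proteins of the large (60S) subunit, 31 proteins of the small (40S) subunit and 3 the acidic stalk proteins of the large subunit. The other 8 carry the paralogue suffix l: Rpl3l, Rpl7l1, Rpl10l, Rpl22l1, Rpl32l, Rpl39l, Rps4l and Rps27l. Each of the 85 symbols matched 1 gene of GENCODE M21 (mm10), and they lay on 19 chromosomes. RNA had been measured in 12 libraries of 100 sorted mouse iNKT (invariant natural killer T) cells, which are T lymphocytes that recognise lipid antigen on CD1d. All cells came from mice aged 6 weeks and were sorted as TCRbeta+, NK1.1+, CD1d tetramer+ and CXCR6+. They were CD244+ (the C2 subset, written CD244pos) or CD244- (the C1 subset, written CD244neg), from thymus or from lung, which gave 4 groups of 3 libraries. The labels name no strain, sex or treatment. Replicates are described as separately prepared libraries, with no word on whether they came from different animals, so each p-value reflects the spread between libraries alone, which may be technical.

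The cytosolic ribosome translates nearly all cellular mRNAs. Its small subunit decodes the mRNA, its large subunit joins amino acids and threads the chain out through an exit tunnel, and the stalk recruits the elongation factors. Each of its proteins is present in about the same number of copies, so their mRNAs tend to be abundant and to vary together. Most of these mRNAs begin with a C followed by a run of pyrimidines, the 5′ terminal oligopyrimidine (TOP) motif, through which mTOR signalling and the protein LARP1 control their translation and stability. Resting T cells make few ribosomes, and activation through the antigen receptor raises ribosome production.

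The libraries held 29696 to 71789 recovered molecules, and each column was rescaled to a common total of 10000, so that every level here is in molecules per 10000. In this scale 1 molecule was worth 0.14 to 0.18 in thymus and 0.19 to 0.34 in lung libraries. Cd244 itself was detected in both CD244pos groups and was at 0 in all libraries of both CD244neg groups. Of 18 iNKT and T cell markers, 13 have a row, and the T cell receptor constant and Trav11 rows are not among them. Those 13 summed to 41.8 to 48.7 per 10000 in thymus, 43.4 to 44.7 in lung CD244neg and 16.7 to 29.8 in lung CD244pos libraries. The lung CD244pos libraries stood apart: 16 macrophage and monocyte markers summed to 86.1 to 166 there, against 0.88 to 3.65 in the other 9 libraries, and 14 of the 14 tested were higher than in lung CD244neg. In lung CD244neg 12 of these 16 were at 0 in all 3 libraries, among them Apoe, Lyz2, C1qa and C1qb. The 8 markers of B cells and antigen presentation with a row summed to 48.9 to 126 in lung CD244pos and to at most 0.62 elsewhere. In such bulk libraries fewer iNKT cells and less RNA per iNKT cell cannot be told apart.

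The start windows of 7 members called between the subsets in lung are shown first, 5 with and 2 without a pyrimidine run, because a pyrimidine run at the start is the feature most often linked to this gene family. Each window holds 30 bases, from 10 before the RefSeq transcription start to 20 from it onward, 5′ to 3′ (GRCm38.p6). Capitals mark a C followed by at least 7 more C or T that begins within 10 bases of the start. Rps27 (chr3:90213629-90213658, minus strand), Rpl35 (chr2:39005112-39005141, minus strand) and Rpl35a (chr16:33056472-33056501, plus strand, the start with a run among its 3 listed starts) were higher in lung CD244pos than in lung CD244neg cells. Rpl13a (chr7:45128726-45128755, minus strand) and Rps6 (chr4:86857348-86857377, minus strand) were lower in the same comparison. Rpl10 (chrX:74270806-74270835, plus strand), which was higher, and Rpl12 (chr2:32961702-32961731, plus strand), which was lower, had no such run in this window, so both directions hold members with and without it.
Rps27: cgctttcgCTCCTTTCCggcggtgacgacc
Rpl35: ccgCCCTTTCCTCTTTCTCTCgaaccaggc
Rpl35a: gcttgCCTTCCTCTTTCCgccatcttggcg
Rpl13a: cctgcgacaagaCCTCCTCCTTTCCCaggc
Rps6: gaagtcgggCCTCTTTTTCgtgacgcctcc
Rpl10: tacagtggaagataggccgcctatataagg
Rpl12: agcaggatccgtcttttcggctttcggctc

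RefSeq start windows were at hand for 64 members with 76 starts, and 21 members had no entry. The run was found at the starts of 25 members, which is 32.9% of the member starts against 7.9% of the 21551 starts of the other genes in the table. Members with and without the run had similar median changes between tissues. In CD244neg cells the median change from thymus to lung was -0.53 on the log2 scale for the 25 members with a run and -0.44 for the 36 tested members with an entry and no run. In CD244pos cells the corresponding medians were -0.73 and -0.74. The run length of 8 bases was chosen after some start sequences had been seen, and a missing match says only that these letters are not in the window.

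Ribosomal protein mRNA made up a large share of all molecules in the thymus libraries and a smaller one in the lung libraries. The 85 genes together held 28.7%, 27.3% and 27.1% of the molecules in the 3 thymus CD244pos libraries and 27.9%, 27.1% and 29.2% in the 3 thymus CD244neg libraries. In lung they held 17.2%, 14.3% and 15.5% in CD244pos and 18.4%, 18.8% and 18.6% in CD244neg libraries. No lung library reached a thymus library, and within lung no CD244pos library reached a CD244neg library. The group means were 27.7% ± 0.89, 28.0% ± 1.07, 15.6% ± 1.46 and 18.6% ± 0.19 in this order (SD, n = 3). Lung over thymus, the ratio was 0.565 in CD244pos and 0.662 in CD244neg cells. Leaving out the ribosomal RNA rows Rn45s and Rn4.5s, which were higher in lung, gave means of 29.9%, 29.9%, 17.4% and 20.9%. All thymus columns shared the deposited total 26890.5 and all lung columns 19342.9. Thymus libraries held 56615 to 71789 molecules and lung libraries 29696 to 51436. Tissue thus cannot be told apart from any difference in library handling, depth or RNA quality between these sets.

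**Figure D1:**
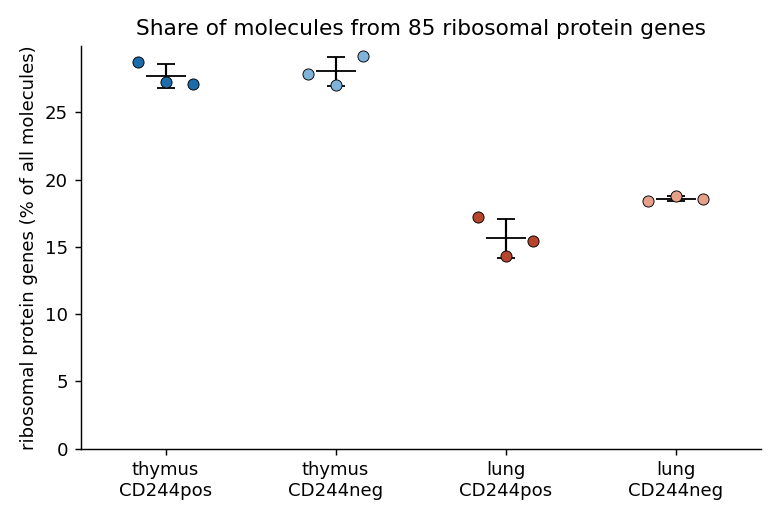
Percent of all recovered molecules (y axis) that came from the 85 ribosomal protein genes in each of the 12 libraries, by group (x axis). Points are libraries and the bar and whiskers are the mean and SD of 3 libraries; all 6 thymus libraries lie between 27.1% and 29.2% and all 6 lung libraries between 14.3% and 18.8%.

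The sums of both subunits were lower in lung than in thymus. The 43 large subunit genes summed to 1356 ± 43.6 per 10000 in thymus CD244pos, 1389 ± 48.8 in thymus CD244neg, 755 ± 71.3 in lung CD244pos and 940 ± 15.5 in lung CD244neg libraries (SD, n = 3). For the 31 small subunit genes the sums were 1274 ± 42.4, 1279 ± 55.5, 719 ± 63.9 and 810 ± 12.3. The ratio of large subunit with stalk to small subunit sums was 1.17 ± 0.01, 1.19 ± 0.01 and 1.17 ± 0.03 in the first 3 groups and 1.29 ± 0.04 in lung CD244neg cells. The 3 lung CD244neg libraries, at 1.25 to 1.32, lay above the other 9, at 1.142 to 1.202. Rps27, the most abundant small subunit member in thymus and described below, fell most in that group.

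Levels differed widely between members. They are molecules primed at the poly(A) tail and are not divided by mRNA length. Rps27, Rps29 and Rplp1 had the highest means over all libraries. Rps29, a small zinc-binding protein of the 40S head, was at 78.0, 69.2 and 71.4 in thymus CD244pos, 77.1, 76.5 and 85.2 in thymus CD244neg, 40.3, 37.9 and 41.6 in lung CD244pos and 44.1, 38.5 and 47.5 in lung CD244neg libraries. Its thymus and lung libraries did not overlap. Rplp1, of the stalk, was at 62.2 to 68.8 in the 6 thymus libraries and at 39.0 to 53.7 in the 6 lung libraries. At the other end, Rpl3l and Rpl10l, paralogues known mainly from muscle and testis, had no molecule in any library. Against the smallest library that is a limit of 3 molecules of 29696, for counting error only. Rpl39l, known from testis, had a value above 0 in 1 library, Rps4l in 4, and Rpl32l lay between 0.27 and 1.33. GENCODE lists Rpl32l as a processed pseudogene and Rps4l as a transcribed processed pseudogene.

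A member was tested when its level exceeded 0.5 in at least 3 libraries, which 81 of the 85 did. Rpl3l, Rpl10l, Rpl39l and Rps4l did not. Changes were estimated as differences of log2(level + 0.5) in 1 limma model of 4 groups over all 4577 genes that passed the same filter. P-values are two-sided and adjusted by Benjamini-Hochberg over those 4577 genes, with a threshold of 0.05. Changes of members with low levels are understated on this scale.

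In thymus no ribosomal protein gene passed the test between the subsets. With limma 0 of the 81 members were called, higher or lower, against 0.262% of all tested genes called higher and 0.0655% called lower in CD244pos. At an unadjusted p under 0.05 there was 1 member with limma and there were 2 with edgeR, which also called none. The median change over the members was -0.02, and over all genes -0.01. The member with the smallest p was Rpl31, a large subunit protein at the rim of the exit tunnel. Its mean was 16.9 in CD244pos and 22.5 in CD244neg thymus libraries, a change of -0.40 ± 0.15 (SE) with an adjusted p of 0.86. The standard error of a change was 0.10 for Rps27 and 0.29 for the much lower Rpl22l1, so small changes were not detectable for most members with 3 libraries a group.

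Most members were lower in lung than in thymus in CD244pos cells. In CD244pos cells 71 of the 81 tested members fell from thymus to lung and 0 rose, where 4.5% of all tested genes were lower and 7.8% higher. With 0 rises at the adjusted threshold, 0 members also rose at an unadjusted p under 0.05, and edgeR called 0 higher and 58 of 79 lower. The median member change was -0.73 and the median over all genes was 0.00. All 81 changes were below 0, from -1.47 to -0.04. The falls covered 38 of 43 large subunit genes, 30 of 31 small subunit genes, 3 of 3 stalk genes and 0 of the 4 tested paralogues. With limma, Rpl7l1 changed by -1.04 (adjusted p = 0.107) and Rpl22l1 by -0.71 (adjusted p = 0.103). Rps27l and Rpl32l changed by -0.06 and -0.04. All 4 had low levels, so a missing call does not show that they were spared.

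Rpl32, a large subunit protein (chr6:115805505-115808747, minus strand), had the largest fall in CD244pos cells. It was at 56.7, 61.7 and 60.3 in thymus and at 24.8, 18.3 and 20.8 in lung CD244pos libraries. The change was -1.47 ± 0.12 (SE, adjusted p = 1.44e-15), and every thymus library lay far above every lung library. Other large subunit genes with large falls were Rpl36 at -1.35, Rpl13 at -1.33, Rpl35 at -1.27, Rpl37a at -1.24 and Rpl41, which encodes the shortest protein of the ribosome, at -1.17. Rps27, a zinc finger protein of the small subunit, fell by 1.08. These 7 kept their direction and their call under all 27 other settings. The iNKT and T cell marker sum was lower in these lung CD244pos libraries too, and macrophage markers were present, as given above. Their part in the falls was not tested.

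The lung CD244neg libraries showed the same direction. Macrophage markers summed to 1.01 to 3.65 there, and the T cell marker sum stood at its thymus level. These libraries differed from the thymus CD244neg libraries in other ways. They held 29696 to 32196 molecules, against 60120 to 67478, and the mean of the Rn4.5s row was 235 against 23.7. The part of cell mixture, depth or RNA quality in the falls was not tested. In CD244neg cells 45 of 81 members fell from thymus to lung and 0 rose, where 3.3% of all tested genes were lower and 3.58% higher. None of the members rose at an unadjusted p under 0.05 with limma, and edgeR called 0 higher and 61 of 79 lower. The median member change was -0.47, against -0.01 over all genes, and 79 of the 81 changes were below 0. The falls covered 22 of 43 large subunit genes, 20 of 31 small subunit genes, the stalk genes Rplp1 and Rplp2, and the paralogue Rpl22l1.

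A pair of genes fell further than the others in CD244neg cells. Rps27 (chr3:90212522-90213651, minus strand) was at 116, 128 and 151 in thymus and at 30.8, 32.5 and 34.2 in lung CD244neg libraries, a change of -1.99 ± 0.10 (SE, adjusted p = 8.64e-24). Rpl35 (chr2:39001580-39005624, minus strand), a large subunit protein beside the tunnel exit, was at 56.3, 53.4 and 58.5 in thymus and at 13.8, 15.3 and 12.4 in lung CD244neg libraries. Its change was -1.99 ± 0.14 (SE, adjusted p = 2e-18). For both, all lung libraries lay far below all thymus libraries. Rpl32 at -1.25, Rpl41 at -1.17, Rpl36 at -1.16, Rps28 at -1.11 and Rps29 at -0.87 followed in size or in p. These 7 were called under all 27 other settings.

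Of the 81 members, 40 fell in both subsets, 31 passed the threshold in CD244pos cells only, 5 in CD244neg cells only and 5 in neither. The 5 in neither were Rpl7, Rpl7a, Rpl7l1, Rpl32l and Rps27l. Of all tested genes 4.5% were lower in CD244pos and 3.3% in CD244neg cells, so no more than 3.3% were lower in both. Rpl7a was at 13.2 to 16.8 in the 6 thymus libraries and at 12.4 to 15.9 in the 6 lung libraries, ranges that overlap almost fully. Those called in CD244neg cells only included Rpl10, Rpl22l1, Rpl31 and Rpl35a. Across the 81 members the changes in the 2 subsets had a Pearson correlation of 0.572, and 0.556 without Rps27 and Rpl35. This describes genes measured in the same libraries, and genes are not independent replicates.

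**Figure D2:**
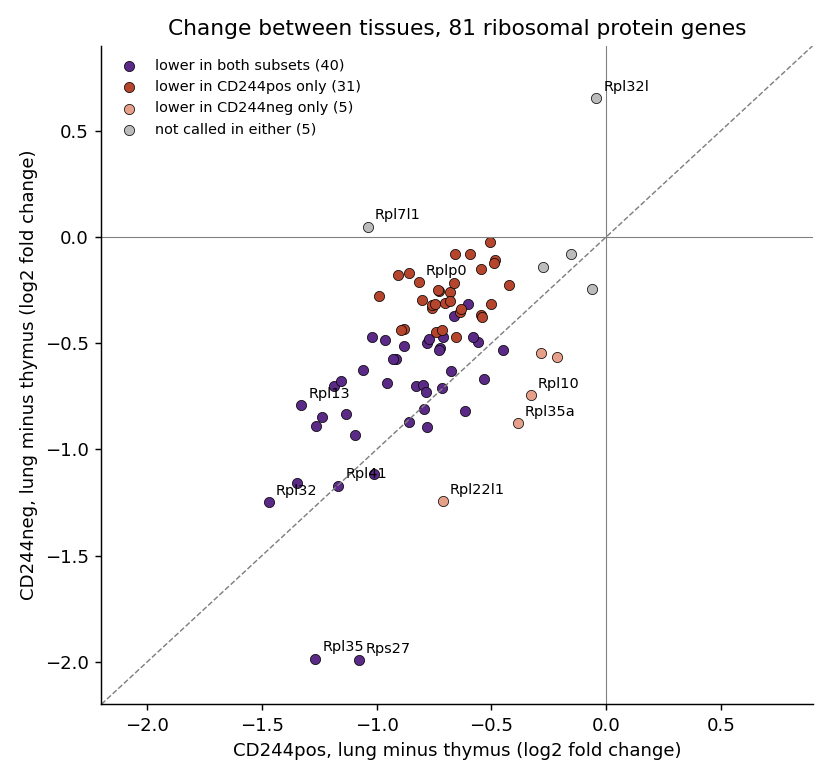
Log2 fold change from thymus to lung in CD244pos (x axis) and CD244neg (y axis) cells, each point 1 of the 81 tested members, coloured by where it passed the threshold. Most points lie below 0 on both axes and above the dashed line of equal change, while Rps27 and Rpl35 lie near -2 for CD244neg cells.

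How far the family fell depended on the scaling, but its direction did not under those tried. The thymus columns had been deposited with a total of 26890.5 and the lung columns with 19342.9, and with these totals kept the median member change was -1.20 in CD244pos and -0.94 in CD244neg cells. The median over all genes then moved to -0.26 and -0.27. Quantile normalization, which gives every library the same distribution of values, left medians of -0.26 and -0.19 and calls of 30 and 19 lower members, with 2 members higher in CD244neg cells.

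Within lung a small set of members was higher in CD244pos than in CD244neg cells, against the direction of the rest. The 4 genes called higher were Rps27, Rpl35, Rpl35a and Rpl10, or 4 of 81 where 7.08% of all tested genes were higher. This share is below that background. Rps27 was at 76.3, 59.4 and 48.4 in lung CD244pos and at 30.8, 32.5 and 34.2 in lung CD244neg libraries, so that the groups did not overlap. Its change was 0.88 ± 0.10 (SE, adjusted p = 9.5e-10) and was called under all 27 other settings. The SD of its level was 14.0 in lung CD244pos and 1.66 in lung CD244neg libraries, whereas this SE rests on all 4 groups.

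The Rps27 difference was smaller when a near-identical copy was added to it. Rps27rt, a separate protein-coding gene, is identical to Rps27 over the last 300 bases of the mRNA, where these libraries are primed, so reads there cannot be assigned to either with certainty. Rps27rt was at 24.5, 19.8 and 22.3 in thymus CD244pos, 22.2, 22.7 and 24.6 in thymus CD244neg, 17.9, 16.6 and 15.8 in lung CD244pos and 25.5, 27.2 and 26.7 in lung CD244neg libraries. It ran opposite to Rps27 within lung. The sum of both genes was 78.1 ± 15.1 in lung CD244pos and 59.0 ± 2.38 in lung CD244neg libraries (SD, n = 3), against 150.2 ± 7.80 and 155 ± 19.0 in thymus. With near-copies summed, the change within lung was 0.39 (adjusted p = 0.00246) and that from thymus to lung in CD244neg cells was -1.38.

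Rpl35 was at 25.1, 15.3 and 25.1 in lung CD244pos and at 13.8, 15.3 and 12.4 in lung CD244neg libraries. The lowest CD244pos library and the highest CD244neg library were thus nearly level, and the change was 0.61 ± 0.14 (SE, adjusted p = 0.000721). It was called under 26 of 27 other settings and missed with molecules thinned to the shallowest library (adjusted p = 0.0784). Rpl35a (chr16:33056453-33060189, plus strand), another large subunit protein, was at 21.1, 19.5 and 24.1 against 18.3, 16.6 and 10.6. Its change was 0.53 ± 0.15 (SE, adjusted p = 0.0106) and fell to 0.30 without the third CD244neg library (adjusted p = 0.194). It was also lost without the third CD244pos library. Rpl10 (chrX:74270812-74273135, plus strand), which is added last to the maturing large subunit, was at 21.3, 18.6 and 18.5 against 15.5, 12.6 and 15.2. Its change was 0.42 ± 0.14 (SE, adjusted p = 0.0445) and was called under 10 of 27 other settings.

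A view that needs no scaling between libraries is each gene's share of the ribosomal protein molecules themselves. Rps27 held 4.17% to 5.17% of them in the 6 thymus libraries, 4.44%, 4.15% and 3.13% in lung CD244pos and 1.68%, 1.73% and 1.84% in lung CD244neg libraries. For Rpl35 the shares were 1.79% to 2.02%, then 1.46%, 1.07% and 1.62%, then 0.751%, 0.814% and 0.669%. In both cases lung CD244neg stood lowest and no library of it reached another group. Rpl10 held 0.821% to 0.991% in thymus, 1.195% to 1.30% in lung CD244pos and 0.672% to 0.843% in lung CD244neg libraries. Its share was thus highest in lung CD244pos cells, unlike that of Rps27.

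**Figure D3:**
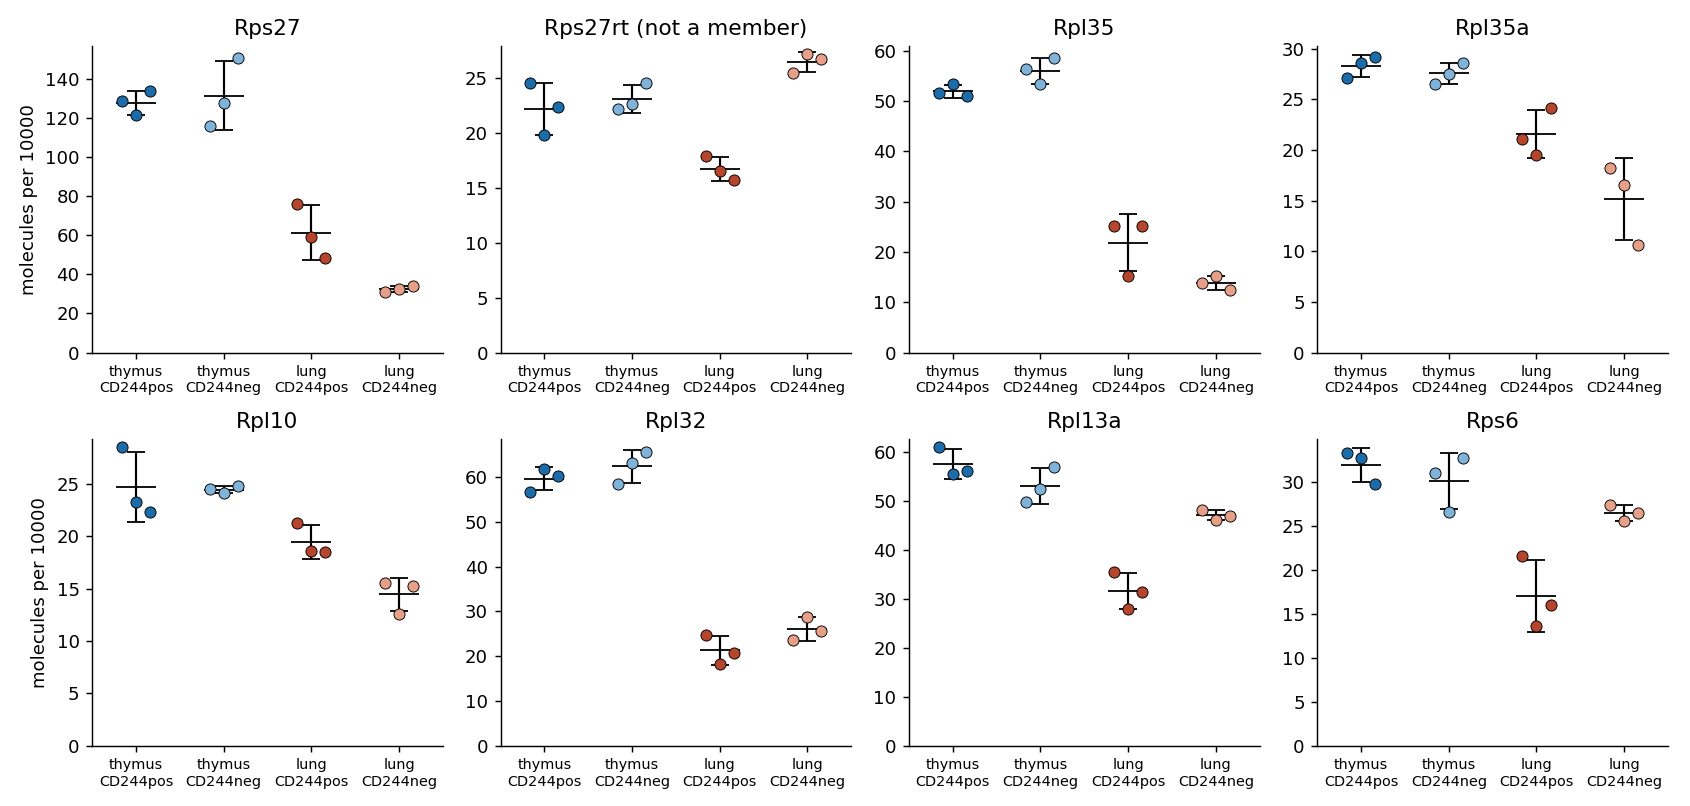
Molecules per 10000 (y axis) of 7 members and of Rps27rt, which is not a member, in each library by group (x axis); points are libraries, bars and whiskers the mean and SD of 3. Rps27 and Rpl35 stand lowest in lung CD244neg, Rpl13a and Rps6 lowest in lung CD244pos, and Rps27rt highest in lung CD244neg libraries.

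Most other changes within lung were downward in CD244pos cells, but they rested on the scaling. With the common total 29 of 81 members were lower in lung CD244pos, where 3.95% of all tested genes were, and the median member change was -0.30 against 0.00 over all genes. With TMM factors, which were 1.08 to 1.19 in lung CD244neg and 0.90 to 0.98 in the other libraries, 0 members were lower (5 at an unadjusted p under 0.05), 4 were still higher and the median was -0.06. A count of 4 of 81 was below the share of all genes with the common total (7.08%), so it is no result about the family. The median over all genes was 0.13 with those factors and the member median lay below it. With quantile normalization 8 were lower. With edgeR on recovered molecules, a fit that also used TMM factors, 2 of 79 were lower. Without the second lung CD244pos library 13 were lower, and without the third 19, with 2 higher in place of 4. Of the 81 changes, 12 were above 0 with the common total, 33 with TMM and 22 with quantile normalization.

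Rpl13a (chr7:45125558-45128761, minus strand), a large subunit protein also known from an interferon-induced block on translation, had the smallest p among the lower members. It was at 35.4, 28.0 and 31.5 in lung CD244pos and at 48.2, 46.1 and 46.9 in lung CD244neg libraries, which did not overlap. Its change was -0.57 ± 0.11 (SE, adjusted p = 5.1e-05) and it missed with TMM (-0.32, adjusted p = 0.092) and with edgeR. Rps6 (chr4:86854660-86857412, minus strand), the substrate of S6 kinase, was at 21.5, 13.6 and 15.9 against 27.4, 25.5 and 26.4. Its change was -0.64 ± 0.14 (SE, adjusted p = 0.000462), and it missed with TMM and with edgeR. Rpl12, at the base of the stalk, changed by -0.63, Rpl17 by -0.54, Rpl39, in the exit tunnel, by -0.50, Rpl23a by -0.45, Rps10 by -0.53 and Rps24 by -0.47, and each of these 6 missed the threshold with TMM. Macrophage and antigen presentation transcripts were high in the lung CD244pos libraries, and their part in these differences was not tested.

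**Figure D4:**
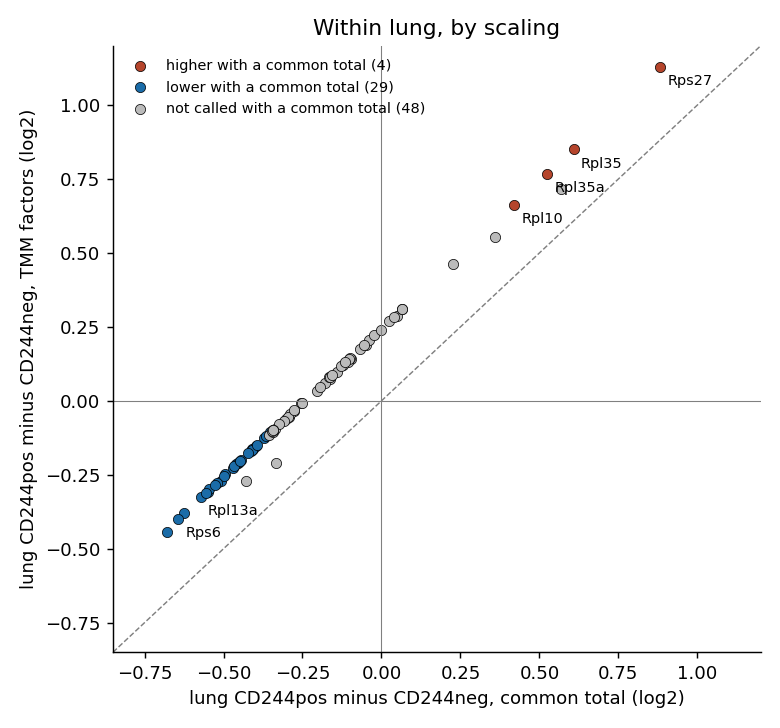
Log2 difference between lung CD244pos and CD244neg cells for the 81 tested members with columns brought to a common total (x axis) and with TMM factors on top of it (y axis), coloured by the call with a common total. Nearly all points lie the same distance above the dashed line of equal values, with a median shift of 0.24, and the 4 higher members are above 0 on both axes.

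The difference between subsets in lung was compared with that in thymus by an interaction term. Here 2 members were called with a more positive difference in lung, Rps27 and Rpl35, and 5 with a more negative one, Rpl13a, Rps6, Rpl13, Rplp0 and Rpl23a. Of all tested genes 3.47% were more positive and 0.765% more negative. For Rps27 the difference of effects was 0.91 ± 0.15 (SE, adjusted p = 8.91e-06), called under 25 of 26 other settings. With Rps27rt added to it the value was 0.42 (adjusted p = 0.0551). For Rpl35 it was 0.72 ± 0.19 (SE, adjusted p = 0.0143), and it missed with thinned molecules (adjusted p = 0.164) and when the third library of thymus CD244pos, thymus CD244neg or lung CD244pos was left out, which left 1 positive call. The 5 negative differences were all lost with TMM, quantile normalization and edgeR, which called 0 members more negative. At an unadjusted p under 0.05 these 3 fits had 2, 13 and 1. Without the first lung CD244pos library 12 members were more negative, and only 1 was without the second lung CD244pos, the first or second thymus CD244pos or the second thymus CD244neg library. There were 2 without the third lung CD244pos library and 3 without the first or the third thymus CD244neg or the second lung CD244neg library.

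The stalk genes behaved unevenly. Rplp0, which anchors the stalk to the large subunit, was at 43.1, 37.4 and 36.7 in thymus CD244pos, 35.1, 36.0 and 34.0 in thymus CD244neg, 23.0, 18.1 and 25.3 in lung CD244pos and 30.0, 33.3 and 27.5 in lung CD244neg libraries. Its lung CD244pos libraries lay below all others. It fell from thymus to lung in CD244pos cells by 0.82 ± 0.13 (SE, adjusted p = 9.22e-07; -0.16 and adjusted p = 0.489 with quantile normalization), with a value of -0.21 in CD244neg cells (adjusted p = 0.385). Rplp1 and Rplp2, the acidic proteins that touch the elongation factors, fell in both subsets, by 0.60 and 0.45 in CD244pos and by 0.31 and 0.53 in CD244neg cells. With quantile normalization Rplp1 in CD244pos and Rplp2 in CD244neg cells missed the threshold, and Rplp2 in CD244pos cells and Rplp1 in CD244neg cells were no longer below 0. The Rplp2 call in CD244pos cells was also lost with edgeR and without the first or second thymus CD244pos or the second lung CD244pos library. The Rplp1 call in CD244neg cells (adjusted p = 0.0407) was lost when any thymus library or the first or second lung CD244neg library was left out. Wdr89 shares 300 bases of its end with Rplp2 at 99.7% identity and was at 11.5 to 15.8 in the group means. With both summed, Rplp2 was not called in CD244neg cells. Rpsa, a small subunit protein also known as the laminin receptor, fell in CD244pos cells by 0.75 (adjusted p = 4.3e-06, not with quantile normalization), with a value of -0.32 in CD244neg cells (adjusted p = 0.128).

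Paralogues were minor beside the genes they are named after. The 8 together summed to 8.39 ± 1.21 per 10000 in thymus CD244pos, 7.64 ± 0.83 in thymus CD244neg, 5.63 ± 0.60 in lung CD244pos and 4.64 ± 0.89 in lung CD244neg libraries (SD, n = 3). Rpl22l1, the paralogue of Rpl22 and the most abundant of them, was at 6.84, 4.64 and 4.10 in thymus CD244neg and at 3.20, 0.995 and 1.86 in lung CD244neg libraries. It fell there by 1.24 ± 0.29 (SE, adjusted p = 0.00198), and without the first thymus CD244neg library it missed (adjusted p = 0.054). A pseudogene, Gm15421, matches 216 bases of its end at 99.5% identity. Rpl22, whose protein is needed for development of alpha-beta T cells, was at 15.2, 15.3 and 17.4 in lung CD244neg, within its range of 14.3 to 16.5 in thymus apart from 1 library, and at 13.1, 9.17 and 10.1 in lung CD244pos libraries. It was lower in lung CD244pos than in lung CD244neg by 0.55 ± 0.16 (SE, adjusted p = 0.0142), a call lost with TMM, with edgeR and without the second or the third lung CD244pos or the third lung CD244neg library. Rps27l, Rpl7l1 and Rpl32l passed no test, with levels of 0.61 to 2.59, 0 to 2.13 and 0.27 to 1.33. Of the other namesakes, Rpl3, Rpl32, Rpl39, Rps4x and Rps27 fell from thymus to lung in CD244pos cells and Rpl10, Rpl32 and Rps27 in CD244neg cells, while Rpl7 passed no test between tissues. With quantile normalization Rpl3, Rpl39 and Rps4x missed the threshold.

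Members with a short median transcript length fell somewhat further in CD244neg cells. This length, the median over GENCODE protein-coding transcripts, was found for 80 tested members. It weighs every annotated isoform alike and need not be the length of the mRNA present in these cells. It was 3706 bases for Rps20 and 946 for Rpl35, which put Rpl35 among the longest members. The 26 shortest, of 367 to 577 bases, had a median change from thymus to lung of -0.57 with 20 called, and the 26 longest, of 860 to 3706 bases, had -0.34 with 11 called. Across the 80 members the Pearson correlation of log2 length with change was 0.29, against 0.02 over 4363 other genes and 0.13 over the 115 of them with at least 5 molecules per 10000, a level closer to that of the members. In CD244pos cells the medians were -0.86 and -0.73 and the correlation was 0.11. The change also correlated with log2 level, at -0.27 in CD244neg and -0.35 in CD244pos cells. With GC content the values were -0.06 and -0.28. All these correlations are weak, across genes of the same libraries, and short and long members also differ in level.

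Other genes of translation were measured beside the members, with no test of the difference between lists. Of the 4 tested genes of other cytosolic ribosome proteins, 3 fell from thymus to lung in CD244pos and 2 in CD244neg cells, with medians of -0.63 and -0.39. Rack1, a small subunit scaffold, fell by 0.61 in CD244pos and by 0.53 in CD244neg cells. Fau, which encodes a small subunit protein fused to a ubiquitin-like domain, fell in CD244pos cells by 0.65. Of 18 translation factors and other mRNAs of the TOP class, 7 fell and 1 rose in CD244pos cells, with a median of -0.45, and 3 fell and 1 rose in CD244neg cells, with a median of -0.25. Eef1a1, the main elongation factor, fell by 0.55 in CD244pos cells. Pabpc1, the poly(A) binding protein, fell by 0.40 in CD244pos cells and rose by 0.41 in CD244neg cells. Vim, a cytoskeletal gene also abundant in macrophages, was the gene that rose in CD244pos cells.

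Few genes of ribosome production passed the test. Of 21 tested genes of ribosome assembly and rRNA processing, 0 were called in CD244pos and 1, Nop10, fell in CD244neg cells from thymus to lung, with medians of -0.24 and -0.33. Of 10 genes of RNA polymerases I and III and their factors, only Ubtf fell, in CD244pos cells. Of 20 tested growth signalling genes, Myc, which drives ribosome production, was the only one called, lower in lung CD244neg (0.22 per 10000) than in thymus CD244neg cells (1.34), by 1.47 on the log2 scale (adjusted p = 0.00801). In lung CD244neg libraries 1 molecule was worth 0.31 to 0.34, so that mean was under 1 molecule per library. The Myc call thus rests on values near the floor. Of 33 tested mitochondrial ribosomal proteins, 0 were called in CD244pos and Mrps14 alone in CD244neg cells, with medians of -0.22 and -0.44. Most of these genes had levels near 1 molecule in 10000, so changes of the size seen in the cytosolic ribosomal proteins would often not be detectable.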

How the data were processed

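The 12 libraries came from 100 sorted cells each, with oligo-dT priming, molecular barcodes, template switching and PCR, per the labels' protocols. Reads were aligned with STAR to mm10, per the submitters' processing notes; the counting, annotation and scaling steps are not given in the sources used here. The deposited signal values are the authors' scaled molecule counts: within a column nearly all are whole multiples of 1 constant, and columns sum to 26890.5 in thymus and 19342.9 in lung. Division by that constant gave the molecules per library (5.11% of values, and 36.2% of members' values, were not whole within 0.0001). ERCC spike-ins were added per the labels, but no such row was used here.

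Columns were rescaled to 10000, a pseudocount of 0.5 was added and log2 values of genes above 0.5 in at least 3 libraries were fitted with limma 3.58.1 (R 4.3.3; trend and robust options), with Benjamini-Hochberg adjustment over 4577 genes. The fit was tested on simulated data, where it recovered most, not all, of the 2-fold changes between groups, missed more than it found for the interaction, and called a few unchanged genes with low levels; its pass mark was lowered after the first outcome was seen. The 27 alternatives covered scaling, pseudocount, filter, depth, weights, replicate block, libraries left out and edgeR 4.0.16. The edgeR fit used 9 libraries taken as whole-number counts, with values that were not whole rounded, so not every group kept its 3 libraries. It also applied TMM factors, so edgeR and TMM are not separate checks of the scaling. Of the alternatives, 2 (ribosomal RNA rows left out, near-copies summed) were chosen after seeing the data. So were the near-copy length of 150 bases and the length check. Near-copies were rows at 97% identity or more in blastn 2.17.0 over at least 150 of the last 300 mRNA bases, found for 14 members. Values that were not whole also occurred in members with no such copy, among them Rpl37 (11 libraries), Rps19 (10) and Rpl14 (9). The near-copy setting does not cover these, and the reason for such values was not tested.

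Named members were up to 8 per direction with the smallest p among those called whose groups do not overlap, up to 8 for the interaction, the stalk genes, Rpsa, paralogues and their namesakes, and the 3 highest and 3 lowest. A few genes that this rule or a count covers are not reported here by name. Rpl31 in thymus, Rpl7a, and members named for falling in 1 subset or neither were named after their values were seen. The members and all gene lists were chosen with earlier results of these data known.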

Additional observations from a re-analysis of the deposited data

Results flagged for a closer look

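For 7 members the difference between CD244pos and CD244neg cells passed the threshold for differing between lung and thymus, by the interaction term of the limma model (Benjamini-Hochberg adjusted p under 0.05). The lung difference minus the thymus difference, on the log2 scale, was 0.915 for Rps27 (adjusted p = 8.91e-06) and 0.717 for Rpl35 (adjusted p = 0.0143). It was -0.691 for Rpl13a (adjusted p = 0.0017), -0.732 for Rps6 (adjusted p = 0.0146), -0.541 for Rpl13 (adjusted p = 0.0299), -0.603 for Rplp0 (adjusted p = 0.0378) and -0.510 for Rpl23a (adjusted p = 0.0468). All 5 negative values missed the threshold with TMM, quantile normalization and edgeR, and of 26 other settings Rpl23a was called in 8 and Rplp0 in 12. Rps27 missed with near-copies summed (adjusted p = 0.0551), and Rpl35 with thinned molecules and without any of 3 libraries. Within lung the CD244pos and CD244neg libraries did not overlap for any of the 7, which were picked by a test on these same libraries. Of all tested genes 12.2% were higher and 10.1% lower without overlap in this comparison. For Rpl35 the nearest pair was 15.287 against 15.259 per 10000, a gap smaller than 1 molecule. The part of the macrophage and B cell transcripts of the lung CD244pos libraries in these differences was not tested.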

How the results depend on the processing

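The 5 comparisons were recomputed under up to 27 alternatives each, and the cause of the changes was not tested. Counts of members called under an alternative stand without the share of all genes called there, so they show only how the member calls moved. Of 110 values for named members 51 were called, and 19 of these kept their call in all settings run. With the totals as deposited, the member median from thymus to lung was -1.199 (CD244pos) and -0.940 (CD244neg), the log2 ratio of sums -1.299 and -1.071, and 78 members were lower in CD244neg cells. With a total over other genes the medians were -0.950 and -0.648 and the sums -1.045 and -0.775. With TMM the CD244neg median was -0.711 and its sum -0.838. Within lung TMM gave 0 lower members, a median of -0.060 and a sum of 0.004. That sum changed sign but was far smaller than the spread of library sums (SD 0.076 on the log2 scale), so no clear difference was left in it. The interaction with TMM had 0 lower, a median of -0.075 and a sum of -0.014. With quantile normalization the tissue medians were -0.260 and -0.190, with 30 and 19 lower and 2 higher (CD244neg); lung had 8 lower and a median of -0.140, and the interaction 4 higher, 0 lower and a median of -0.158. Rplp2 (0.003) and Rpsa (0.010) in CD244pos and Rplp1 (0.105) in CD244neg cells changed sign there.

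With edgeR the medians were -0.580 and -0.561 between tissues, -0.075 within lung (2 lower) and -0.020 for the interaction (0 lower). Thinned molecules gave 2 higher and 19 lower in lung and 1 and 3 for the interaction; only the libraries compared gave 2 and 12 in lung. Interaction calls were 2 lower with no filter, 8 with the stricter filter and 8 without ribosomal RNA rows (where the CD244neg sum was -0.518), and 1 higher with near-copies summed. Leaving out 1 library at a time gave 2 to 4 higher and 13 to 36 lower in lung, and 1 to 2 higher and 1 to 12 lower for the interaction. The replicate block gave 4 higher and 31 lower in lung, 71 and 46 lower between tissues and 2 and 5 for the interaction. Same-numbered libraries correlated at -0.02 to 0.014 over all tested genes. Most of these genes had low levels, where counting error can hide a shared animal, so pairing by number was not excluded. Members below 5 molecules per 10000, 8 in all, are limited by depth.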
